A study of Mus musculus with 2 samples.

Results

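The killer cell lectin-like receptor genes (Klr genes) code for paired inhibitory and activating receptors of the C-type lectin fold, and most are known from natural killer (NK) cells. The 9 genes described here were named beforehand: Klra17, Klra4, Klra7, Klra8, Klrb1c, Klrc1, Klrd1, Klrk1 and Klrg1, of 26 genes whose symbol starts with Klr and of 31017 gene symbols in all. They were chosen for their levels across NK cells, T cells and macrophages of these same libraries, and Klra17 for a high level in PyMT-M monocytes and macrophages, so those levels are given as a description. The data are 2 libraries of single cells, 1 each from mammary tumours grown from the mouse lines PyMT-M and PyMT-N. Cells of each line were placed in the mammary gland by injection, tumours of 0.7 to 1 cm were taken after 4 weeks, and living CD45-positive immune cells were sorted and sequenced from the 5′ end of each transcript with unique molecular identifiers (UMIs). PyMT is the polyoma middle T oncogene, whose transgene is a model of breast cancer. What M and N stand for, the strain of the recipient mice and the number of animals are not given in the labels.

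Inhibitory receptors of this family carry a short tyrosine motif, the ITIM, in the part inside the cell, and dampen the cell when they bind their ligand, usually an MHC class I molecule. Activating members lack it and pair with an adaptor such as DAP12 (Tyrobp) or DAP10 (Hcst). The Ly49 receptors (Klra genes) bind MHC class I directly, CD94 (Klrd1) pairs with NKG2A (Klrc1) and binds Qa-1 (H2-T23), NKG2D (Klrk1) binds stress-induced ligands, NK1.1 (Klrb1c) is a surface mark of NK cells, and KLRG1 binds cadherins. Klra17 codes for Ly49Q, an inhibitory Ly49 receptor known from myeloid and plasmacytoid dendritic cells and not from NK cells.

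All 9 genes lie on chromosome 6 of mouse build GRCm38, in the GENCODE M21 annotation. Klra17 spans 129831154 to 129876672 on the minus strand, Klra4 spans 130043731 to 130067271, Klra8 spans 130115226 to 130129898 and Klra7 spans 130218605 to 130233322, all on the minus strand. Klrd1 is on the plus strand from 129591782 to 129598775, and Klrk1 (129610323 to 129623864) and Klrc1 (129666015 to 129678973) follow it on the minus strand. Klrb1c spans 128778485 to 128789215 and Klrg1 122270596 to 122282882, both on the minus strand. Klra2, the gene of Ly49B, another inhibitory myeloid receptor, is not one of the 9 and spans 131219223 to 131247362 on the minus strand. It is described beside Klra17 because the levels of both lay in myeloid cells.

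The start of the coding sequence shows the difference between inhibitory and activating Ly49 genes. The first 60 coding bases are shown for Klra17, Klra2 and the 3 Ly49 genes found in NK cells, from the GENCODE M21 transcripts, with codons 6 to 11 in capitals, the stretch that codes for the ITIM in inhibitory members.
Klra17: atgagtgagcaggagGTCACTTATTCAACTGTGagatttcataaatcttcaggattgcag
Klra2: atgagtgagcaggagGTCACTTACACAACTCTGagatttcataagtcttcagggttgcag
Klra7: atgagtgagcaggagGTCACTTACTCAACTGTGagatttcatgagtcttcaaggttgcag
Klra4: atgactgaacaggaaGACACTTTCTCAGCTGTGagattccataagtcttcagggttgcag
Klra8: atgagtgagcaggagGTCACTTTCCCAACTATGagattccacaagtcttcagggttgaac
Counted from the A of the start codon and against Klra17, both Klra4 (Ly49D) and Klra8 (Ly49H), which are activating receptors, carry A23T in codon 8, where the tyrosine codon becomes a phenylalanine codon. Klra7 (Ly49G2, inhibitory) and Klra2 keep tyrosine there, with the silent change T24C. A script search for the ITIM pattern in the first 45 codons found it at codon 6 in Klra17, Klra2, Klra7 and Klrc1 and at codon 5 in Klrg1, and not in Klra4, Klra8, Klrb1c, Klrd1 or Klrk1. Over the 60 bases, Klra17 differed from Klra7 and from Klra2 at 5 positions each and from Klra4 and Klra8 at 10 each. The whole coding sequence of Klra17 was 75.0% identical to that of Klra7, 75.2% to Klra4, 75.6% to Klra8 and 63.5% to Klra2.

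Copies this alike can exchange reads. Of all 50-base windows of each gene's transcripts, the share also present in a transcript of another Klr gene was 0% for Klra17, Klra2, Klrd1, Klrk1 and Klrg1. It was 4.35% for Klra4, 5.99% for Klrb1c, 12.3% for Klra7, 33.1% for Klra8 (most with the pseudogene Klra14-ps) and 38.6% for Klrc1 (most with Klrc2). The levels of Klra8 and Klrc1 may therefore be less certain than the others. The windows cover whole transcripts, and the share over the part near the 5′ end was not computed. The Ly49 gene content is known to differ between mouse strains, and reads of another strain's copies would be assigned to the nearest gene of the reference.

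The 2 libraries held 7476 barcodes with 43977988 UMIs (PyMT-M) and 5020 barcodes with 14907736 UMIs (PyMT-N), 60 barcode sequences occurred in both, and 6917 and 4793 cells passed the filters. Cell classes were set by UMIs of marker genes that are not Klr genes, and give the following cells in PyMT-M and PyMT-N. There were 316 and 31 NK cells, 708 and 177 T cells, 4870 and 505 macrophages, 144 and 239 monocytes, 24 and 1620 neutrophils, 95 and 31 dendritic cells, 51 and 60 B cells and 8 and 3 plasmacytoid dendritic cells, while 671 and 2110 cells met no gate. Median UMIs per cell were 6137.5 and 3967 for NK cells, 4499 and 3102 for T cells and 5048 and 5766 for macrophages. Levels are UMIs of a gene in 1000000 UMIs of a class (CPM). A gene is said to pass 2-fold toward a tumour line when its level, after adding 1 CPM to both, was at least 2-fold higher there. A gene with 0 UMIs in 1 library can pass by the added CPM, and its fold against a floor of 3 UMIs is then given where there is one. With 1 library per line no difference between tumours has a replicate check, no test was made, and each interval in parentheses is a 95% interval of counting error only.

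Klra17 was read in macrophages and neutrophils, and stood at or under 2 CPM in NK and T cells. In macrophages of PyMT-M it stood at 244 CPM (239 to 250; 6882 UMIs in 2564 of 4870 cells), and in macrophages of PyMT-N at 3.85 CPM (1.99 to 6.72; 12 UMIs in 9 of 505 cells), 63.5-fold lower. On the log2 scale after adding 1 CPM, which understates the change of low genes, the PyMT-N over PyMT-M difference was -5.66 (interval of the plain ratio -6.94 to -5.18). The macrophage gate needs 20 UMIs of the complement genes C1qa, C1qb and C1qc, and these genes summed to 27866 CPM in PyMT-M macrophages and to 13718 CPM in PyMT-N macrophages. The neutrophil genes S100a8 and S100a9 summed to 21.8 CPM in PyMT-M macrophages and to 731 CPM in PyMT-N macrophages. Of the 12 Klra17 UMIs of PyMT-N macrophages, 6 lay in the 104 cells with a UMI of these genes (8.52 CPM). The 401 cells without one held the other 6, at 2.48 CPM (0.912 to 5.41), against 245 CPM in the 4853 PyMT-M macrophages without one. Split by the genes Ctsk and Mmp12 instead, the 91 PyMT-N macrophages with a UMI of either held 7 of the 12, at 11.3 CPM (4.53 to 23.2). The 414 without held 5, at 2.0 CPM (0.65 to 4.67). Of all Klra17 UMIs in PyMT-M, 98.0% lay in macrophages. In NK cells of PyMT-M there were 4 UMIs (1.90 CPM) and in T cells 6 (1.57 CPM). In PyMT-N there were none in NK cells, where 3 UMIs would be 18.3 CPM, and none in T cells, where 3 UMIs would be 4.10 CPM. The share of PyMT-M macrophages with a Klra17 UMI was 52.6%, against 0.847% of T cells and 1.27% of NK cells of that library. After thinning each cell to 1000 UMIs the macrophage share was 19.8% in PyMT-M and 0% in PyMT-N.

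Monocytes did not share the level of macrophages. The monocyte gate takes cells with Ly6c2 or Ccr2 and Csf1r and under 20 C1q UMIs. It held 3 Klra17 UMIs in 144 cells of PyMT-M (3.32 CPM, 0.685 to 9.71) and 3 in 239 cells of PyMT-N (2.0 CPM, 0.412 to 5.84). The high level of the gene in PyMT-M monocytes that was part of the choice of members was not seen in cells gated this way.

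In PyMT-N most Klra17 UMIs lay in neutrophils. These cells stood at 48.7 CPM (42.1 to 56.2; 191 UMIs in 180 of 1620 cells), and held 68.2% of the gene's 280 UMIs in that library, against 4.29% in macrophages and 26.1% (73 UMIs) in cells that met no gate. Thinned to 1000 UMIs, 5.15% of PyMT-N neutrophils and 0% of PyMT-N macrophages had a UMI. The 24 neutrophils of PyMT-M held 4 UMIs, 96.0 CPM (26.2 to 246). The interval of the neutrophil ratio between tumours spanned no change, at -2.36 to 0.91 on the log2 scale. Of the 191 UMIs in PyMT-N neutrophils, 188 lay in the 1565 cells with 0 UMIs of C1qa, C1qb and C1qc (49.7 CPM, 42.8 to 57.3). Among other classes, dendritic cells held 5 Klra17 UMIs in PyMT-M (6.67 CPM) and 1 in PyMT-N (4.80 CPM). The 8 plasmacytoid dendritic cells of PyMT-M held 3 UMIs (76.5 CPM, 15.8 to 224), and the 3 of PyMT-N held none.

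**Figure D1:**
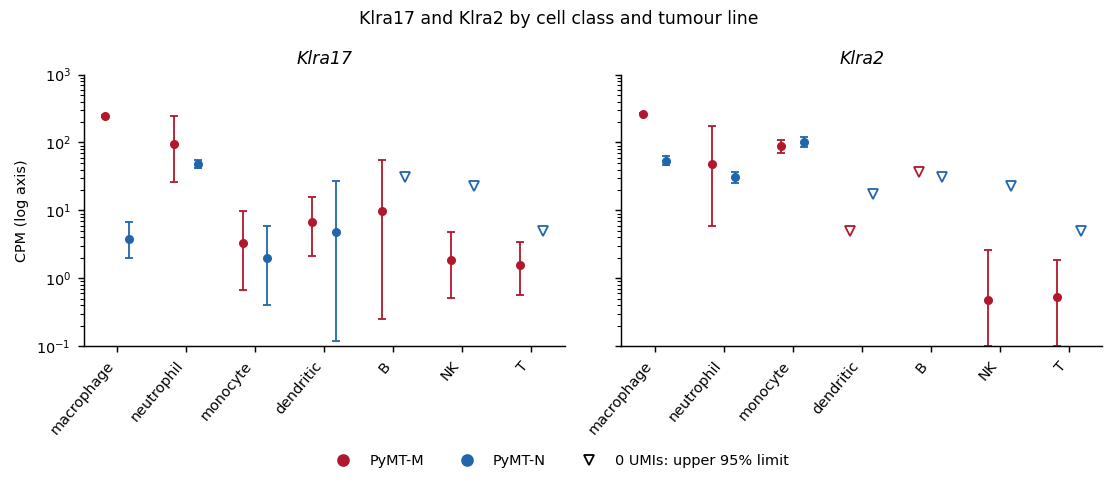
Level of Klra17 (left) and Klra2 (right) in CPM on a log axis, by cell class and tumour line; points are 1 library each, bars are 95% Poisson intervals cut off at the axis, and open triangles mark the upper 95% limit of a class with 0 UMIs. Klra17 was at 244 CPM in PyMT-M macrophages and 3.85 CPM in PyMT-N macrophages, while Klra2 was at 265 and 53.9 CPM, and at 87.5 and 103 CPM in monocytes.

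Klra2 followed Klra17 in part. It stood at 265 CPM in PyMT-M macrophages (7471 UMIs) and 53.9 CPM in PyMT-N macrophages (168 UMIs), a log2 difference of -2.28 (-2.53 to -2.08). In monocytes it was at 87.5 and 103 CPM, with an interval of the ratio from -0.17 to 0.64, and in PyMT-N neutrophils at 30.9 CPM (121 UMIs). Both Ly49 genes were thus found in neutrophils of PyMT-N, and only Klra2 was above 10 CPM in monocytes and in PyMT-N macrophages, each taken as a whole class. In single macrophages of PyMT-M, 80.6% of the cells with a Klra17 UMI also had a Klra2 UMI, against 41.7% of the cells without one. After thinning these shares were 33.2% and 19.8%.

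Of the 9 members, 8 reached 20 UMIs in macrophages, and 3 passed 2-fold toward PyMT-M and 0 toward PyMT-N, beside 9.07% and 3.19% of the 11935 genes with 20 UMIs. They were Klra17, chosen for this contrast, Klra7 (3.16 and 0 CPM, at least 3.28-fold higher) and Klrb1c (3.09 and 0.321 CPM). Nothing is read from the count. The 8 members besides Klra17 stood between 0.390 and 6.42 CPM in PyMT-M macrophages. The NK markers of the gate (Ncr1, Gzma, Prf1, Eomes, Nkg7 and Txk) summed to 56.3 CPM there, with UMIs of all 6. In PyMT-N macrophages they summed to 1.60 CPM, with Ncr1, Prf1 and Eomes at 0, and their part in the Klra7 and Klrb1c values was not tested. With doublet scores not used, 7 members passed 2-fold toward PyMT-M, and with 5 CPM added in place of 1 only Klra17 did. The share of all genes was not computed under these settings, so nothing is read from the change in count.

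Of 9 other Klr genes measured in macrophages, 6 passed 2-fold toward PyMT-M and 0 toward PyMT-N, beside the same 9.07% and 3.19% of all genes. Klrb1b, which codes for the inhibitory receptor NKR-P1B, stood at 31.4 CPM in PyMT-M macrophages and 4.17 CPM in PyMT-N macrophages. Klrg2 stood at 11.1 and 1.28 CPM. Klra2 was the highest of the 6. The remaining genes were low: Klra3 at 3.09 and 0.962 CPM, Klre1 at 2.38 and 0 CPM, and Klra5 at 1.49 and 0 CPM. Against a floor of 3 UMIs in PyMT-N, Klre1 was at least 2.47-fold higher. Klra5 was at least 1.55-fold higher, so its bound lies under 2-fold. The NK markers summed to 56.3 and 1.60 CPM in these macrophages, and their part in these low values was not tested.

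Within PyMT-M macrophages, Klra17 went with the level of MHC class II genes. Cells were ordered by the summed CPM of H2-Aa, H2-Ab1, H2-Eb1 and Cd74, the chains that present peptide to CD4 T cells, and divided into 4 equal parts. Klra17 stood at 85.2 CPM (78.2 to 92.7) in the lowest part, 226 CPM in the next, 320 CPM in the next and 340 CPM (326 to 354) in the highest. Ordered by C1q the parts were at 140, 253, 297 and 303 CPM, where the gate itself uses C1q. Ordered by a list of type I interferon genes such as Isg15 and Ifit1 they were at 251, 244, 235 and 246 CPM, with overlapping intervals at both ends. Median UMIs per cell of the MHC class II parts were 4420.5, 5707.5, 5059 and 4976. In the 293 PyMT-M macrophages without a Cd74 UMI (median 2575 UMIs) the level was 29.1 CPM, and in the 78 with Ly6c2, a gene of inflammatory monocytes, it was 81.3 CPM (61.3 to 106). In the 351 with Mki67, a gene of dividing cells, it was 271 CPM, against 241 CPM in the others. Klra2 rose along the same order from 145 to 336 CPM, a smaller range than that of Klra17.

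**Figure D2:**
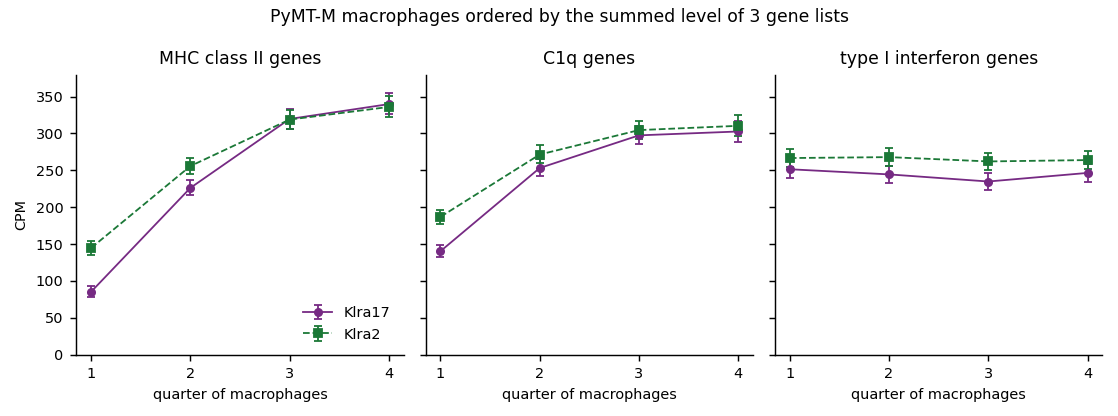
Klra17 (circles) and Klra2 (squares) in CPM in 4 equal parts of the PyMT-M macrophages, ordered from lowest (1) to highest (4) by the summed level of MHC class II, C1q or type I interferon genes; bars are 95% Poisson intervals. Klra17 ran from 85.2 to 340 CPM along MHC class II and stayed between 235 and 251 CPM along the interferon genes.

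In PyMT-N neutrophils the same ordering by interferon genes gave 47.9, 39.2, 52.5 and 56.3 CPM of Klra17, with overlapping intervals. Neutrophils with an Isg15 UMI stood at 60.5 CPM (49.4 to 73.3; 612 cells, median 2310 UMIs), and those without at 39.5 CPM (31.7 to 48.8; 1008 cells, median 1919.5 UMIs), without overlap. With and without Siglecf, a marker of a tumour neutrophil state, they stood at 33.8 CPM (21.7 to 50.3) and 52.0 CPM (44.4 to 60.6). For Retnlg, a gene of mature neutrophils, the values were 53.0 and 40.5 CPM, and for Ngp, a granule gene of immature neutrophils, 32.6 and 51.0 CPM. Klra17 was thus read in all of these neutrophil states.

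Upstream of the gene starts, the Ly49 genes of both groups share part of their sequence. The 120 bases before the start of Klra17, Klra2, Klra4 and Klra8 (first entry) and Klra7 (second entry, each the entry at the annotated gene start) are given, 5′ to 3′ in the direction of the gene, from the RefSeq promoter table of build GRCm38.p6, in which 7 of the 9 members matched. They are shown because Klra17 and Klra2 were read in myeloid cells and the other 3 in NK cells, and capitals mark a match to TTGCNNAA, a C/EBP-type motif, on either strand.
Klra17: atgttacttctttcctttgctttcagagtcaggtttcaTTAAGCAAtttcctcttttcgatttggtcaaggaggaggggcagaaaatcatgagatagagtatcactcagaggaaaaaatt
Klra2: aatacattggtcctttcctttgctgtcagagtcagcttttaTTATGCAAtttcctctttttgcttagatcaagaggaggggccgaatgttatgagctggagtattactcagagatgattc
Klra4: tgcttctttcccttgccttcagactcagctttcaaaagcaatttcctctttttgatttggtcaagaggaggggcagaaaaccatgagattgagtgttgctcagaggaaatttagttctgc
Klra8: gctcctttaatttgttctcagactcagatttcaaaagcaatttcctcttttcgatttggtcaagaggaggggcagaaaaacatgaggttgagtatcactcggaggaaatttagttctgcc
Klra7: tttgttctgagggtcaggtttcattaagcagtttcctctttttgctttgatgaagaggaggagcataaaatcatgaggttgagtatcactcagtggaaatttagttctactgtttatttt
They lie on the minus strand at chr6:129876673-129876792, chr6:131247363-131247482, chr6:130067272-130067391, chr6:130129899-130130018 and chr6:130233323-130233442. Over the whole table entry, 250 bases before to 50 after the start, Klra17 was 79.3% identical to Klra4, 79.0% to Klra8, 74.6% to Klra2 and 74.0% to the second entry of Klra7. Klra4 and Klra8 were 86.0% identical, and Klra2 and that entry of Klra7 63.2%. TTGCNNAA was 1 of 7 motifs searched on both strands. In the 120 bases it matched in Klra17 and Klra2 and in none of the other printed windows, and 4.15% of the 32851 promoter entries hold it in that window. Over all 300 bases, Klra4, Klra8, Klrk1 and Klrc1 held a match too, beside 10.8% of all entries. The PU.1-type letters GAGGAA were in all 5 printed windows, beside 11.6% of all windows of that length. The other 5 were RUNX (TGTGGT), GAS (TTCNNNGAA), AP-1 (TGANTCA), T-box and interferon response motifs, and the last 2 matched no entry of the members or of Klra2, beside 1.28% and 3.44% of all entries.

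Among the named classes, with all T cells taken as 1 class, the other 8 members had their highest level in NK cells in both tumours. Some T cell subsets described below stood higher. Klrg1 was at 362 CPM in PyMT-N regulatory T cells, and at 158 CPM, from 3 UMIs, in those of PyMT-M. Klrc1 was at 238 CPM in PyMT-M gamma-delta type T cells. More UMIs lay in the more numerous T cells of PyMT-N for Klrd1 (181 against 122 in NK cells), Klrg1 (41 against 21) and Klrc1 (75 against 57). Of the 8 in NK cells, Klrd1 (CD94) had the highest level, at 641 CPM in PyMT-M NK cells (607 to 676) and 744 CPM in PyMT-N NK cells (618 to 889). Then came Klra7 at 520 and 427 CPM, Klrb1c at 436 and 470 CPM and Klrk1 (NKG2D) at 426 and 482 CPM. The intervals of Klrb1c and Klrk1 overlapped in each library, and in PyMT-N that of Klra7 overlapped both, so their order is not settled. Klrc1 (NKG2A) stood at 210 and 348 CPM, Klra8 at 196 and 116 CPM, Klra4 at 131 and 232 CPM, and Klrg1 at 58.3 and 128 CPM, lowest in PyMT-M and level with Klra8 in PyMT-N. A UMI stands for 1 transcript whatever its length, so these levels were compared between genes without a length correction.

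Within each library NK cells exceeded T cells. At a 2-fold threshold, 7 of the 8 measured members were higher in NK cells in PyMT-M, beside 2.49% of 9399 genes, and 8 of 8 in PyMT-N, beside 5.44% of 4558 genes. None was 2-fold higher in T cells, beside 4.92% of genes in PyMT-M and 14.5% in PyMT-N. The log2 difference in PyMT-M ran from 0.87 for Klrc1 (0.68 to 1.07) to 2.65 for Klra8 (2.39 to 3.0). In PyMT-N it ran from 1.18 for Klrg1 to 5.51 for Klra4 (4.17 to 8.16). The members were chosen on these classes, so nothing is read from the counts. B cells held none of the 8 members in either library, where 3 UMIs would be 29.5 and 25.6 CPM. The 1620 neutrophils of PyMT-N held 1 UMI of Klrc1, 1 of Klrk1 and none of the other 6.

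**Figure D3:**
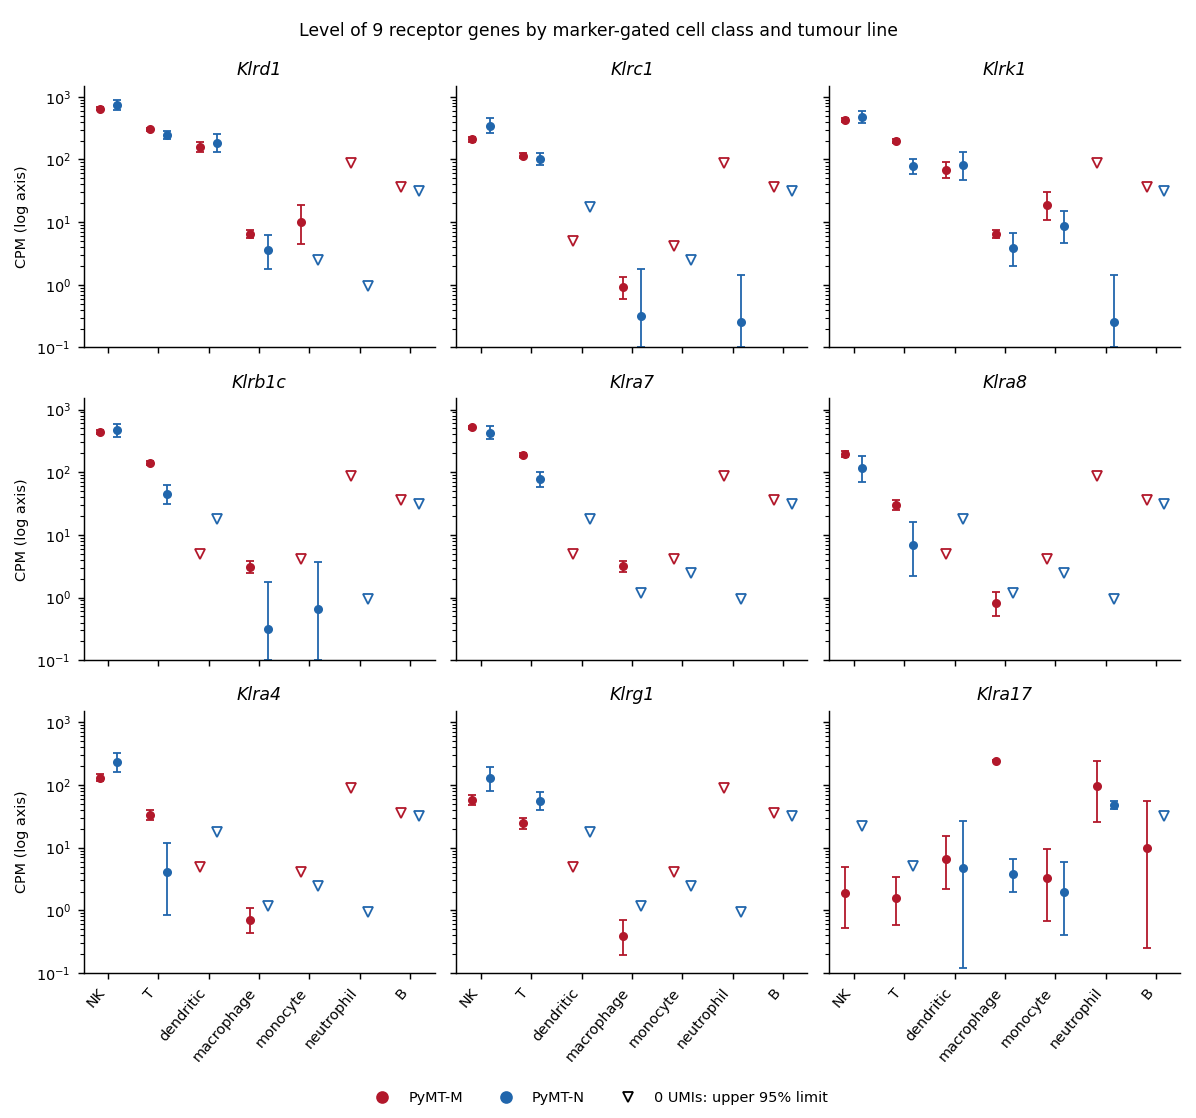
Level of each member in CPM on a log axis in 7 cell classes of PyMT-M and PyMT-N; points are 1 library each, bars are 95% Poisson intervals cut off at the axis, and open triangles mark the upper 95% limit of a class with 0 UMIs. Among the classes drawn 8 of the genes were highest in NK cells in both tumours, and Klra17 was at 244 CPM in PyMT-M macrophages and 48.7 CPM in PyMT-N neutrophils.

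Dendritic cells carried 2 of the NK receptor genes. Klrd1 stood at 160 CPM (133 to 192; 120 UMIs in 35 of 95 cells) in PyMT-M and 182 CPM (129 to 250; 38 UMIs in 16 of 31 cells) in PyMT-N. Klrk1 stood at 68.1 CPM (50.7 to 89.5) and 81.6 CPM (47.5 to 131). The tumours did not differ beyond counting error, with log2 intervals of -0.38 to 0.72 for Klrd1 and -0.62 to 1.08 for Klrk1. The remaining 6 of these genes had 0 UMIs in dendritic cells of both libraries. The 6 NK markers summed to 1.33 CPM in PyMT-M dendritic cells and to 0 in PyMT-N dendritic cells. The epithelial markers Epcam, Krt8 and Krt18 summed to 1157 and 110 CPM in these cells, and their part in the values was not tested. Plasmacytoid dendritic cells of PyMT-M held 19 Klrd1 UMIs in 5 of 8 cells. Monocytes held Klrk1 at 18.8 CPM in PyMT-M (17 UMIs) against 8.66 CPM in PyMT-N (13 UMIs), with all 6 NK markers at 0. It was the 1 member with 20 UMIs there and passed 2-fold toward PyMT-M at -1.04 (-2.28 to 0.01), beside 4.21% of 7197 genes, and 3.21% passed toward PyMT-N.

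Between tumours, 7 of the 8 members measured in NK cells stayed within 2-fold, and the intervals of 4 of the 8 left out no change. Of the 8, 1 passed 2-fold toward PyMT-N and 0 toward PyMT-M, beside 6.46% and 20.7% of 7384 genes. The median log2 difference of the 8 was 0.20, and that of all genes -0.20. The inhibitory receptor gene Klrg1 passed 2-fold, with 123 UMIs in 57 of 316 PyMT-M cells and 21 UMIs in 10 of 31 PyMT-N cells and a log2 difference of 1.12 (0.39 to 1.81). Klra4 was higher in PyMT-N by 0.82 on the log2 scale (0.29 to 1.31), where its 38 UMIs lay in 7 cells and 15 of them in 1 cell. Klrc1 was higher in PyMT-N by 0.73 on that scale (0.30 to 1.13). Klra8 was lower, at -0.75 (-1.50 to -0.09), from 19 UMIs in PyMT-N. Intervals of the other 4 spanned 0: Klra7 at -0.28 (-0.65 to 0.07), Klrb1c at 0.11 (-0.25 to 0.44), Klrd1 at 0.22 (-0.06 to 0.48) and Klrk1 at 0.18 (-0.17 to 0.51). C1q genes summed to 51.2 CPM in PyMT-M NK cells and 6.10 CPM in PyMT-N NK cells. Klrg1 fell just under 2-fold, at a log2 difference of 0.96, when doublet scores were not used, and at 0.98 with looser gates, which leaves no member past 2-fold. In NK cells with an Ncr1 UMI Klra8 passed 2-fold, at -1.10. Scaling by the median ratio over genes moved all NK values by 0.12, and Klrg1 then stood at 1.00.

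Of the 12 other Klr genes measured in NK cells, 2 passed 2-fold toward each tumour, beside the same 6.46% toward PyMT-N and 20.7% toward PyMT-M of all genes. Klra9, a Ly49 gene, stood at 177 CPM in PyMT-M against 48.8 CPM in PyMT-N. Klra6 had 25 UMIs in PyMT-M (11.8 CPM) and 0 in PyMT-N, where 3 UMIs would be 18.3 CPM, so no fold is given and its count toward PyMT-M rests on the added CPM. Klrb1b was higher in PyMT-N (33.6 and 79.3 CPM), as was Klrc3, at 17 and 3 UMIs with a log2 interval of -1.23 to 2.97. Klre1, whose product pairs with the Klri receptors, was the highest of these genes, at 397 and 561 CPM.

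In T cells the tumours differed more. Of the 8 measured members, 5 passed 2-fold toward PyMT-M and 1 toward PyMT-N, beside 9.70% and 5.07% of 9006 genes, with a median log2 difference of -1.30 against -0.12 for all genes. The 5 were Klrb1c at 141 and 45.1 CPM (-1.63, -2.20 to -1.14), Klrk1 at 197 and 77.8 CPM (-1.33, -1.75 to -0.95), Klra7 at 190 and 77.8 CPM (-1.28, -1.71 to -0.90), Klra4 at 33.04 and 4.10 CPM (126 and 3 UMIs) and Klra8 at 30.4 and 6.83 CPM (116 and 5 UMIs). Klrd1 at 304 and 247 CPM and Klrc1 at 115 and 102 CPM, the chains of the CD94 and NKG2A pair, stayed within 2-fold. Klrg1 was higher in PyMT-N, at 24.6 and 56.0 CPM (1.15, 0.62 to 1.73), and at 0.99 with looser gates.

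The T cell gate took cells with 2 UMIs of Cd3d, Cd3e and Cd3g, and its make-up was not the same in the tumours. It held 128 cells with an Ncr1 UMI in PyMT-M and 6 in PyMT-N, Ncr1 being the gene of the NK receptor NKp46. In those 128 cells the T cell receptor gene Trac stood at 49.3 CPM, against 304 CPM in the 580 T cells without Ncr1. Between the 128 and the 6 cells, the log2 ratio of Klrb1c was 0.12 (-0.59 to 0.76) and of Klrk1 -0.06 (-0.81 to 0.60). Klra8 was at -0.06 (-1.72 to 1.21) and Klra4 at -0.88 (-3.19 to 0.70). Klra7, at -1.23 (-2.46 to -0.24), and Klrc1, at -1.42 (-3.06 to -0.18), were lower in PyMT-N there. In T cells without Ncr1 the NK markers of the gate still summed to 4029 and 1455 CPM. Without the Ncr1 cells, 4 members passed 2-fold toward PyMT-M and 1 toward PyMT-N. The share of all genes was not computed for these cells, so nothing is read from the counts. Klrb1c was then at -1.85 and Klrk1 at -1.28, Klra7 fell under the threshold at -0.89 (-1.36 to -0.47), and Klrc1 turned to 0.60 (0.19 to 1.00). Klra4 and Klra8 had 26 and 22 UMIs in PyMT-M and none in PyMT-N, at least 2.05-fold and 1.73-fold higher against a floor of 3 UMIs in PyMT-N, so the bound of Klra8 lies under 2-fold. Klrg1 stayed higher in PyMT-N at 1.09 (0.53 to 1.69).

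**Figure D4:**
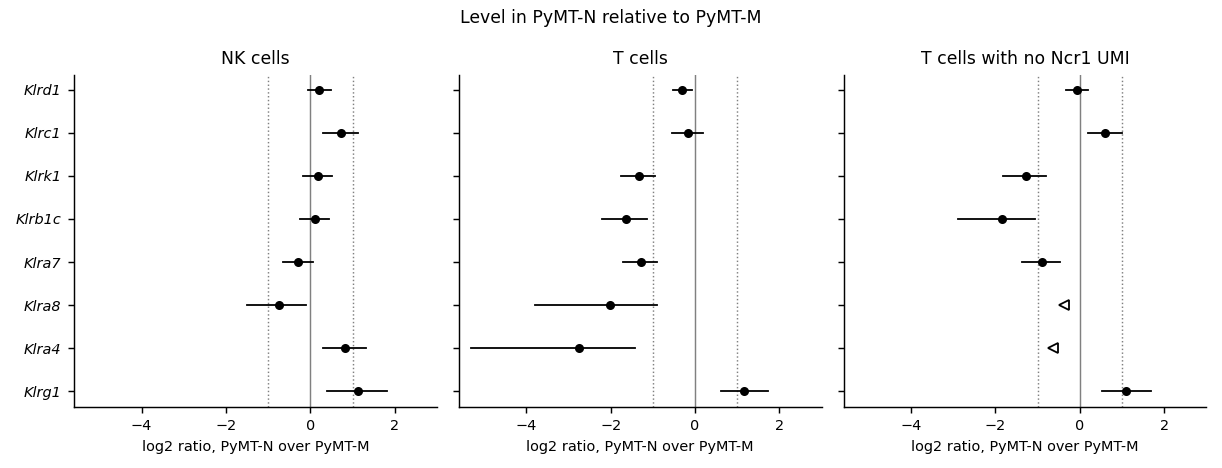
The log2 ratio of PyMT-N over PyMT-M for 8 members in NK cells, T cells and T cells with no Ncr1 UMI; bars are 95% intervals of counting error, dotted lines mark 2-fold, and open triangles give the upper limit where PyMT-N had 0 UMIs. In NK cells only Klrg1 passed 2-fold, while in T cells Klrk1, Klrb1c, Klra7, Klra8 and Klra4 were lower in PyMT-N and Klrg1 was higher.

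T cell subsets, set by Cd8a and Cd8b1, Cd4, Foxp3 or Trdc UMIs, showed where the members lay. CD8 T cells numbered 346 in PyMT-M and 21 in PyMT-N. In them Klrd1 stood at 150 CPM (132 to 169; 98 cells) and 373 CPM (278 to 490; 13 of 21 cells), a log2 difference of 1.31 (0.85 to 1.76) higher in PyMT-N, the opposite direction to all T cells. Klrc1 was at 42.1 and 87.7 CPM, the latter from 12 UMIs in 2 cells, and Klra7 at 86.5 and 154 CPM, the latter from 21 UMIs in 4 cells. The neutrophil genes S100a8 and S100a9 summed to 2288 CPM in the PyMT-N CD8 T cells and to 0 in those of PyMT-M, and their part in these values was not tested.

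Cells with Trdc and neither Cd4 nor Cd8, a pattern of gamma-delta T cells that some NK cells and innate lymphoid cells also show, numbered 71 and 23. In PyMT-M the levels of Klrd1, Klra7, Klrk1 and Klrb1c were above those of CD8 T cells. In PyMT-N that of Klra7 was not. That of Klrd1 was level with CD8 T cells there within counting error, at 396 against 373 CPM (53 and 51 UMIs). Klrd1 stood at 535 and 396 CPM, Klra7 at 371 and 105 CPM, Klrk1 at 357 and 187 CPM and Klrb1c at 247 and 105 CPM. Klra4 had 57 UMIs in PyMT-M (110 CPM) and 0 in PyMT-N, at least 4.91-fold higher, and Klra8 47 UMIs and 1. Klrc1 went the other way, at 238 and 344 CPM, with an interval from 0.01 to 1.03.

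Among the Klrg1 UMIs of T cells, most lay in regulatory T cells in PyMT-N and in CD8 T cells in PyMT-M. In PyMT-N, 23 of the 41 Klrg1 UMIs of T cells were in the 23 regulatory T cells, which carry Foxp3, the factor that defines them (362 CPM, 230 to 544; 12 of 23 cells). The 7 regulatory T cells of PyMT-M held 3 UMIs in 1 cell. In PyMT-M, 60 of 94 UMIs were in CD8 T cells (35.1 CPM, 26.8 to 45.1; 38 of 346 cells), and the 21 CD8 T cells of PyMT-N held none, a level at least 1.60-fold lower. Regulatory T cells held 0 UMIs of the other 7 NK receptor members and of Klra17 in both tumours, where 3 UMIs would be 158 and 47.3 CPM, and CD4 T cells held at most 4 UMIs of any member except Klrg1.

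Of the 11 other Klr genes measured in T cells, 7 passed 2-fold toward PyMT-M and 0 toward PyMT-N, beside 9.70% and 5.07% of all genes, with a median of -1.13 against -0.12. Klre1 stood at 155 and 46.4 CPM and Klrb1a at 118 and 15.02 CPM.

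Single NK cells carried these receptors in mixtures. Every NK cell of both libraries had a UMI of at least 1 of the 8 members, with a median of 5 per PyMT-M cell and 4 per PyMT-N cell, and of 2 in both libraries after thinning to 1000 UMIs. For the Ly49 genes Klra4, Klra7 and Klra8, 76 of 316 PyMT-M cells had none, 93 had 1, 91 had 2 and 56 had all 3. In PyMT-N, 14 of 31 cells had none, 6 had 1, 7 had 2 and 4 had all 3. At least 1 was seen in 75.9% (70.8 to 80.6) of PyMT-M cells and 54.8% (36.0 to 72.7) of PyMT-N cells, and after thinning in 44.7% (39.1 to 50.4) and 32.3% (16.7 to 51.4), where the intervals overlap. In classes that should lack these genes, B cells had 0 UMIs of all 3, and 0.370% of PyMT-M macrophages had a Klra7 UMI. In PyMT-M, Klra8 was seen in 63.4% of the NK cells with Klra7 and in 31.2% of those without. After thinning these shares were 25.5% and 13.5%. For Klrd1 and its partner Klrc1, Klrd1 was seen in 85.4% of the Klrc1 cells and 92.4% of the others, and after thinning in 41.2% and 43.7%.

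**Figure D5:**
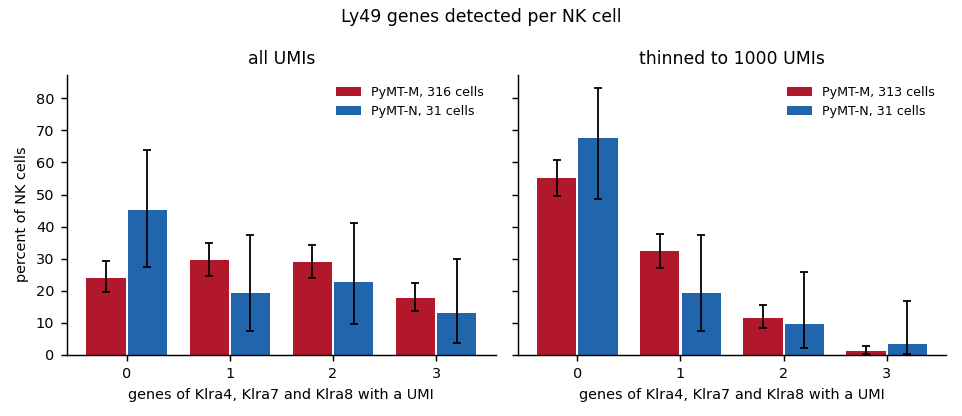
Percent of NK cells in which 0, 1, 2 or 3 of Klra4, Klra7 and Klra8 had a UMI, with all UMIs (left) and with each cell thinned to 1000 UMIs (right), by tumour line; bars start at 0 and lines are 95% Clopper-Pearson intervals. With all UMIs, 17.7% of PyMT-M and 12.9% of PyMT-N NK cells had all 3, and the intervals of the tumours overlap in each thinned category.

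Genes through which these receptors signal were taken as a list. Of 13 adaptor and signalling genes measured in NK cells, 1 passed 2-fold toward PyMT-M, the kinase gene Zap70 (195 and 73.2 CPM; -1.40, -2.38 to -0.59), and 0 toward PyMT-N, beside 20.7% and 6.46% of all genes, with a median of -0.14 against -0.20. Hcst, the adaptor of NKG2D, was at 628 and 677 CPM and Tyrobp, the adaptor of Ly49D and Ly49H, at 4024 and 2917 CPM. In T cells 4 of 13 passed 2-fold toward PyMT-M and 1 toward PyMT-N, beside 9.70% and 5.07% of all genes. Tyrobp was at 1234 and 412 CPM and Fcer1g at 1942 and 781 CPM, and the kinase gene Syk, at 4.98 and 16.4 CPM, was higher in PyMT-N. In macrophages 1 of 12 passed 2-fold toward PyMT-M, the signalling gene Vav1 (151 and 71.5 CPM), beside 9.07% of all genes. The phosphatase gene Ptpn6 (SHP-1), which ITIMs recruit, was at 307 and 173 CPM there.

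Ligand genes of the receptors were a further list. In macrophages 0 of 9 measured ligand genes passed 2-fold in either direction, beside 9.07% toward PyMT-M and 3.19% toward PyMT-N, with a median of -0.36 against -0.19 for all genes. The MHC class I genes H2-K1, at 1709 and 878 CPM (-0.96, -1.02 to -0.90), and H2-D1 lay close to the threshold, and H2-T23 (Qa-1) was at 161 and 129 CPM. In NK cells 1 of 7 passed 2-fold toward PyMT-N and 2 toward PyMT-M, beside 6.46% and 20.7% of all genes. One of the latter was Cdh1, the gene of the KLRG1 ligand E-cadherin, with 102 UMIs in PyMT-M (48.3 CPM) and 0 in PyMT-N, at least 2.64-fold lower. Epcam, Krt8 and Krt18 summed to 128 and 6.10 CPM in NK cells, and their part in the Cdh1 value was not tested.

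Of the 20 NK and innate lymphoid genes measured in NK cells, 5 passed 2-fold toward each tumour, beside 20.7% of all genes toward PyMT-M and 6.46% toward PyMT-N. Tmem176a and Tmem176b were among those higher in PyMT-N. Tigit, an inhibitory receptor gene (256 and 97.6 CPM), and Itga1 (139 and 67.1 CPM), an integrin of tissue-resident cells, were among those higher in PyMT-M. Of 19 measured in T cells, beside 9.70% and 5.07% of all genes, 11 passed 2-fold toward PyMT-M, among them Ccl5 (10128 and 2711 CPM) and Gzmb, and 4 toward PyMT-N, among them Il7r (47.5 and 208 CPM).

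Over 11 points, each a cell class of at least 50 cells in 1 library, the genes whose log2(CPM + 1) profile was most like that of Klrb1c were Klra7 (Pearson r 0.996), Prf1 (0.996), Gzmc (0.995), Ncr1 (0.995) and Bspry (0.993). Prf1 and Ncr1 are markers of the NK gate. Among the 5 most like Klra17 were Kpna4 (0.910), Sqstm1 (0.905), Vav1 (0.892) and Ubap1 (0.887), of which Vav1 is in the signalling list. These genes were read at all 11 points. Kpna4 ran from 61.9 to 154 CPM, Sqstm1 from 133 to 422.5, Vav1 from 32.8 to 151 and Ubap1 from 17.1 to 41.3. Klra17 ran from 0 to 244 CPM, and r takes no account of the size of a range. The points share 2 libraries, and classes of under 50 cells, such as PyMT-N NK cells, are not among them.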

How the data were processed

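The deposited files hold UMI counts per gene and cell barcode, 1 matrix per tumour line. Cell Ranger, Seurat and the mouse build mm10 are named in the submitters' processing notes, with no role or version for this step. The 9 members and all gene lists were chosen with earlier results of these data known.

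Barcodes with under 200 genes or over 10% mitochondrial UMIs were removed (119 in PyMT-M and 26 in PyMT-N). Scrublet's own threshold marked 0 doublets, so the top scores were removed at 0.8% per 1000 barcodes (440 and 201). A barcode kept had 500 UMIs or more.

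Gates on raw UMIs of genes that are no members set the classes. T cells had 2 Cd3 UMIs. NK cells had 0 Cd3 UMIs and 4 UMIs over 2 or more of 6 NK markers. Macrophages had 20 C1q UMIs. Monocytes had 3 Ly6c2 and Ccr2 UMIs with Csf1r and under 20 C1q UMIs. Neutrophils had 50 S100a8 and S100a9 UMIs with Csf3r. B and dendritic cells had 3 marker UMIs.

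UMIs were summed per class and library. Intervals at the 95% level were exact Poisson for a level, conditional binomial for a ratio and Clopper-Pearson for a share, and cover counting error only. A gene was measured from 20 UMIs over both libraries, and log2 ratios add 1 CPM. Named were all members, other Klr genes with 20 UMIs, at most 6 genes of a list by level and ratio, and the 5 genes most like Klra17 and Klrb1c. Genes withheld from the text are not reported here. The ratio script was tested on simulated data. Alternatives were other gates, scaling, cell filters, pseudocount, minimum count, thinning and number of parts. Python 3.11.15, numpy 2.4.6, scipy 1.17.1, pandas 2.3.3, scanpy 1.11.5 and Biopython 1.88 were used.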

Additional observations from a re-analysis of the deposited data

Results flagged for a closer look

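The activating receptor gene Klra4 (Ly49D) went in opposite directions in 2 cell classes. The log2 ratio of PyMT-N over PyMT-M was 0.816 in NK cells, from 277 and 38 UMIs, and -2.74 in T cells, from 126 and 3 UMIs. With 1 library per line the difference between the classes was not tested. The 38 UMIs of PyMT-N NK cells lay in 7 cells, and 100 of the 126 UMIs of PyMT-M T cells lay in the 128 T cells with an Ncr1 UMI.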

How the results depend on the processing

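No paired analysis was possible because each line has 1 library, and no replicate could be left out for the same reason. Of 107 alternative values of the main results, 92 stayed in the interval or within 1.5 times of the main value and 15 moved. Most of these values are counts, shares or levels, for which a turn of direction could not be scored. It could be scored only for the Klra17 ratio in macrophages and for its parts by MHC class II and C1q, and none of these turned. In NK cells the number of members past 2-fold toward PyMT-N went from 1 to 0 with looser gates, with all deposited barcodes and with doublet scores not used. The number toward PyMT-M went from 0 to 1 with members from 1 UMI and with NK cells with Ncr1. In T cells the number toward PyMT-N went from 1 to 0 with looser gates. In macrophages the number toward PyMT-M went from 3 to 7 with all deposited barcodes and with doublet scores not used, and to 1 with a pseudocount of 5 CPM. No share of all genes past 2-fold was computed under these alternatives, so nothing is read from the changes in these counts. Klra17 in macrophages went to -4.82 on the log2 scale with that pseudocount, and lay between -6.01 and -5.46 otherwise. Thinned to 500 UMIs, 11.4% of PyMT-M macrophages and 2.53% of PyMT-N neutrophils had a Klra17 UMI, and 30.4% of PyMT-M NK cells had 1 or more of Klra4, Klra7 and Klra8, since fewer UMIs were drawn. Toward PyMT-M in NK cells, the added calls were Klra17, with 4 and 0 UMIs, and Klra8 at -1.10. With PyMT-M macrophages in 3 parts, the log2 of the highest over the lowest part was 1.53 by MHC class II and 0.94 by C1q, against 2.0 and 1.11 with 4. Klra17 in PyMT-N neutrophils lay between 48.5 and 52.4 CPM under 4 alternatives, and T cells without Ncr1 were compared, all chosen after seeing the data. Of 340 alternative values of single members, 26 moved. The 31 NK cells of PyMT-N limit the NK comparisons between tumours.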
